A study of Mus musculus with 4 samples.

Results

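The CpG island regions of mouse chromosome 8 were examined in 4 embryonic stem cell samples, in which part of the sheared DNA had been enriched for methylated fragments and compared with the whole DNA on a CpG island array. A region was a run of at least 3 probes whose starts lay at most 500 bp apart. By this rule chromosome 8 held 810 regions with 5368 probes, which was 5.74% of the 14121 regions on the array. The chromosome was selected on the whole-DNA signal of these same arrays, in which both Parp-1 deficient clones lay below wild type. Values of that signal are therefore given as a description, with no test. Chromosome 8 was described as having a lower copy in both clones, and the arrays only partly bear this out. Within each array, chromosome 8 of the clones stood close to the other autosomes, and it was the wild type array and the PJ34 array on which it stood above them.

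Genomic DNA came from J1, a mouse embryonic stem cell line, untreated (here called wild type) on 1 array, and from 2 Parp-1 deficient lines made from J1, clone 210-58 and clone 226-47, on 1 array each. A further array held DNA of J1 cells treated with PJ34, an inhibitor of poly(ADP-ribose) polymerases. No other allele or agent is given, nor are the dose and duration of PJ34, the passage number of any line, or whether the clones arose from separate targeting events. The clones are the only group with more than 1 array, so any spread between samples comes from 2 arrays and may be in part technical. Wild type and clone 210-58 shared 1 slide, and clone 226-47 and the PJ34 sample shared another. All differences from wild type below rest on the same single wild type array.

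CpG islands are short stretches rich in CpG dinucleotides, often at gene starts, and most of them carry little cytosine methylation, whereas imprinted, germline-specific and many gene-body islands can be methylated. Immunoprecipitation with an antibody against methylated cytidine enriches such fragments. On these arrays the precipitated DNA carried the dye Cy5 and the whole DNA Cy3, so the log2 ratio of Cy5 to Cy3 rises with methylation and with the number of CpGs in a fragment, and the Cy3 signal follows the amount of each locus in the DNA. Cultured mouse embryonic stem cells are known to gain or lose whole chromosomes, chromosome 8 among them. PARP-1 adds poly(ADP-ribose) to itself and to chromatin proteins, and has been linked to the activity of the maintenance machinery of DNA methylation.

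All values are on the log2 scale, where 1 is a 2-fold difference, and each channel and each log ratio was set relative to the median of its array over all probes that are not controls. Chromosome 8 was read well: between 93.7% and 97.6% of its probes had a Cy5 signal well above background on each array, no probe was saturated, and 3 of its 5443 probes were left out for an outlier flag. Positions are those of the array design. No label or file header used here names their genome build, and they are taken to be those of the older mouse build mm8, which no table at hand could test. No probe was paired with a gene, so regions are named by position.

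The whole-DNA signal of chromosome 8 was the highest of the 20 chromosomes compared (the autosomes and X) in wild type and in the PJ34 sample. Its median Cy3 over 5440 probes was 0.51 in wild type and 0.48 in PJ34. In clone 210-58 it was 0.05 and in clone 226-47 it was 0.06. The 15 autosomes other than 6, 8, 11 and 14 had medians from -0.14 to 0.05 in wild type, from -0.11 to 0.03 in PJ34, from -0.12 to 0.03 in clone 210-58 and from -0.11 to 0.06 in clone 226-47. Chromosomes 6, 11 and 14 were kept out of this range because their Cy3 also differed between arrays. The 2 clones thus lay just above the top of the range of those 15 autosomes, and the 2 samples that are not clones lay far outside it. The X chromosome, of which the male J1 line carries a single copy, shows how the arrays respond to a known difference in dose. Its median Cy3 was -0.93 in wild type, -0.74 and -0.85 in clones 210-58 and 226-47, and -0.89 in PJ34. Set against the other autosomes of the same array, the departure of chromosome 8 was thus in the 2 J1 arrays and not in the clones. A difference in every cell and a larger one in some of the cells cannot be told apart from these values.

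**Figure D1:**
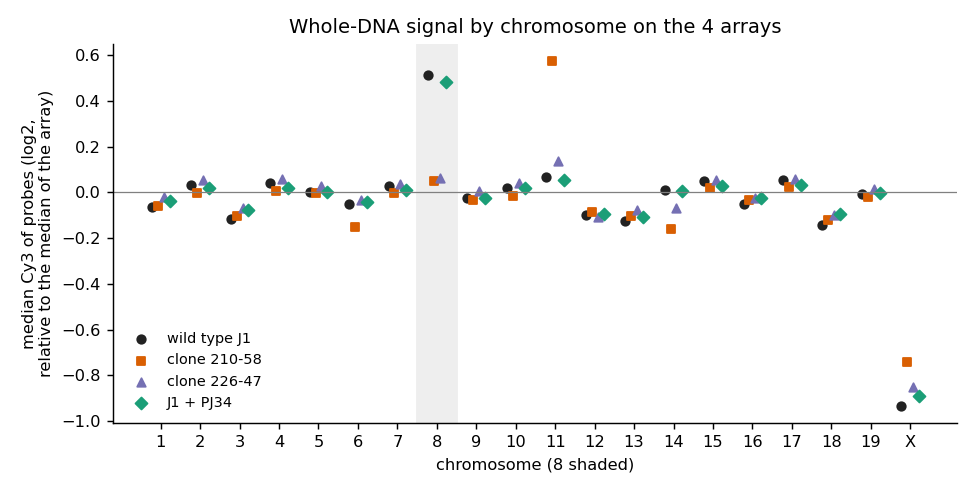
Median whole-DNA (Cy3) signal of the probes of each chromosome on the 4 arrays, on the log2 scale relative to the median of each array; each point is 1 chromosome on 1 array and chromosome 8 is shaded. On chromosome 8 wild type (0.51) and PJ34 (0.48) lie above all other chromosomes of their arrays, and the clones (0.05 and 0.06) lie just above the 15 autosomes.

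Over the 810 regions, the Cy3 difference from wild type had a median of -0.44 in clone 210-58 (SD over regions 0.14) and of -0.42 in clone 226-47 (SD over regions 0.10). These medians correspond to 73.8% and 74.7% of the wild type signal. The median of the mean of the clones was -0.43, and the SD of the 2 clones' medians was 0.01 (n = 2). In PJ34 the median difference was -0.01, with 426 of 810 regions below wild type. Cy3 was below wild type in 805 regions in clone 210-58, in 808 in clone 226-47, and in 804 in both. A decrease of at least 0.25 in both clones occurred in 717 of 810 regions (88.5%), against 5.55% of all 14121 regions, a contrast from which nothing is read because it chose the chromosome. A decrease of at least 0.25 under PJ34 occurred in 4 of 810 regions (0.494%), against 0.269% of all regions. The clones lay within 0.25 of each other in 765 regions (94.4%).

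The same gap was present between the 2 arrays of one slide. Clone 226-47 minus PJ34 had a median of -0.42, with all 810 regions below, while the medians of the 15 other autosomes in this contrast lay between 0.01 and 0.04. It was also present before the scanner software's corrections. The median Cy3 of a chromosome 8 region, as the raw spot signal minus its local background, was 428 in wild type, 392 in PJ34, 296 in clone 210-58 and 310 in clone 226-47. For the regions of the other autosomes it was 310, 290, 285 and 302 in the same order of samples. Wild type was 1.45 and 1.38 times as bright as clones 210-58 and 226-47 on chromosome 8 and 1.09 and 1.02 times off it, whereas against PJ34 it was 1.09 times on and 1.07 times off chromosome 8.

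The lower Cy3 of the clones ran the length of the chromosome, from the first region at position 3278983 to the last, which ended at 131572535. In windows of 10 Mb, the median difference lay between -0.55 and -0.33 in clone 210-58, between -0.46 and -0.33 in clone 226-47, and between -0.04 and 0.15 in PJ34. The weakest window of clone 210-58 was 40 to 50 Mb (-0.33, 47 regions) and its strongest was 10 to 20 Mb (-0.55, 46 regions). Clone 226-47 had its strongest value in the island-dense window from 70 to 80 Mb (-0.46, 150 regions) and its weakest from 50 to 60 Mb, where there were only 7 regions (-0.33). No window of either clone reached the level of wild type.

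**Figure D2:**
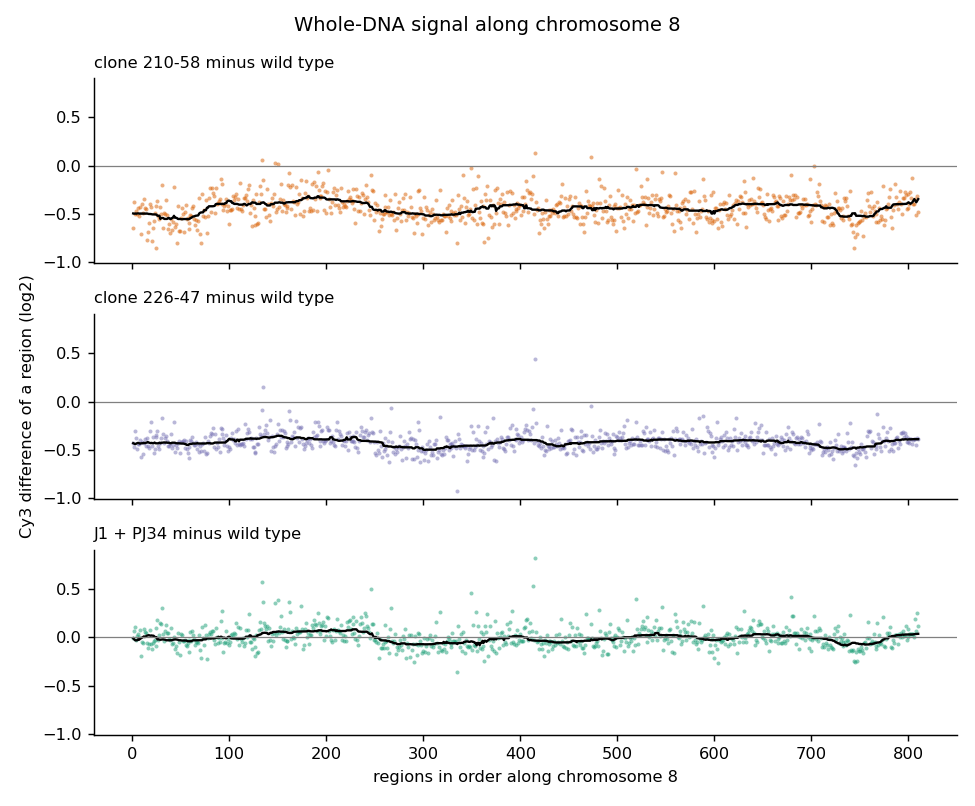
Cy3 difference from wild type of each of the 810 regions (points), in order along chromosome 8, for clone 210-58, clone 226-47 and the PJ34 sample; black lines are running medians over up to 41 neighbouring regions. Both clones lie near -0.43 from end to end, and PJ34 lies near 0.

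Part of the variation along the chromosome in clone 210-58 went with the brightness of the probes. When all regions were ranked by their mean Cy3 and divided into 6 equal bins, the difference of clone 210-58 on chromosome 8 went from -0.25 in the dimmest bin (72 regions) to -0.51 in the brightest (268 regions). The other autosomes of that array went from 0.13 to -0.12 over the same bins. In clone 226-47 the difference stayed between -0.38 and -0.44 in all 6 bins, with the other autosomes between 0.03 and 0.05. The difference from wild type was therefore lower on chromosome 8 than on the other autosomes by a similar amount at every brightness in both clones.

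Few regions left this common level. At the high end in both clones stood chr8:86512411-86512728, a region of 3 probes, with a Cy3 difference of 0.13 in clone 210-58 and 0.44 in clone 226-47. It was dim in wild type (Cy3 -1.92) and was also higher in PJ34, by 0.82. The next at this end, chr8:87880613-87880960, chr8:32616768-32616984, chr8:40128792-40129311 and chr8:86484694-86484937, had differences from -0.11 to 0.09 in clone 210-58 and from -0.10 to -0.05 in clone 226-47, and PJ34 was above wild type in each, by 0.13 to 0.57. At the low end stood chr8:74397885-74398746, a region of 6 probes, with -0.80 and -0.92 in clones 210-58 and 226-47, and -0.36 in PJ34. The other regions at this end, chr8:125168763-125169018, chr8:73683928-73684319, chr8:73456589-73457047 and chr8:75372577-75372973, lay between -0.74 and -0.60 in the clones and between -0.25 and -0.14 in PJ34. All 3 differences share the wild type array.

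The methylation landscape of the chromosome was shared by all 4 samples. A log ratio of 2 or more, which marks strong enrichment in the precipitate, was reached by 99 regions in wild type (12.2%). The counts were 86 (10.6%) and 67 (8.27%) in clones 210-58 and 226-47, and 98 (12.1%) in PJ34. Over all 14121 regions the shares were 9.94% in wild type, 8.67% and 6.31% in clones 210-58 and 226-47, and 9.79% in PJ34. Clone 226-47 thus had the smallest share on the whole array too. On chromosome 8, 63 regions were at 2 or more on all 4 arrays and 41 were at 3 or more on all 4. The regions at 2 or more by their mean over the arrays made up 10.6% of chromosome 8 (86 of 810) and 8.52% of the other autosomes. A log ratio below -1 on all 4 arrays was found in 29 regions. No share over all regions is at hand for the counts that require a level on all 4 arrays at once.

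The most enriched region was chr8:108868065-108868710, with a log ratio of 4.66 in wild type, 5.35 and 4.67 in clones 210-58 and 226-47, and 5.83 in PJ34. It was followed by chr8:111839294-111840439, chr8:46535760-46536227, chr8:46522113-46523076, chr8:10978434-10978760 and chr8:109052039-109052343, with values from 4.39 to 4.69 in wild type, from 4.78 to 5.08 in clone 210-58, from 4.41 to 4.66 in clone 226-47 and from 5.34 to 5.50 in PJ34. In each of these 6 regions PJ34 was the highest of the 4 samples. None of the 6 passed the test of the clones against wild type described below. Their standard errors in it were 0.84 to 0.93, against 0.29 to 0.45 at the regions that passed. Only a large difference could have passed there, so the lack of a call does not show that these regions were unchanged. At the other extreme, chr8:78005521-78006058 had -3.05 in wild type, -3.20 and -1.55 in clones 210-58 and 226-47, and -3.15 in PJ34. The 5 next lowest, chr8:75420968-75422116, chr8:87736565-87737595, chr8:4275589-4276067, chr8:73231262-73231977 and chr8:107530518-107531256, lay between -2.72 and -1.75 in wild type, clone 210-58 and PJ34, and between -1.66 and -1.17 in clone 226-47. In all 6, clone 226-47 had the least negative value. These lowest levels rest partly on probes whose Cy5 was not well above background: at the lowest region 3 of 5 probes were above it in wild type, 2 and 5 in clones 210-58 and 226-47, and 2 in PJ34, and of the 5 others chr8:4275589-4276067 alone had every probe above it on every array. Their order and the distance of clone 226-47 from the rest are therefore not precise. The log ratios of clone 226-47 were also less spread over the whole array. Over all 14121 regions their SD was 1.04, against 1.31 in wild type, 1.33 in clone 210-58 and 1.40 in PJ34. Log ratios below -1 made up 4.37% of all regions in clone 226-47, against 12.8%, 15.6% and 14.1% in wild type, clone 210-58 and PJ34. The milder lows of clone 226-47 are thus not particular to these regions.

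Enriched regions were unevenly spread. The window from 40 to 50 Mb held the largest share of regions at 2 or more in wild type, 15 of 47 (31.9%), and the window from 90 to 100 Mb, among those with any, the smallest (4.41%). The longest unbroken run of regions at 2 or more on all 4 arrays consisted of 8 neighbours with 36 probes between 46449325 and 46550419, a span of 101 kb, and was singled out after its values were seen. Its regions had a median log ratio of 4.27 in wild type (range 3.19 to 4.50), 4.62 in clone 210-58 (3.74 to 5.07), 3.73 in clone 226-47 (2.26 to 4.66) and 4.81 in PJ34 (3.36 to 5.50). The next longest run had 3 regions, between 111689226 and 111840439. Of the 63 regions, 42 stood without a neighbour at that level.

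Cy5, the precipitated DNA, was also lower on chromosome 8 in the clones, but by less than Cy3. The median Cy5 difference from wild type over the regions was -0.30 and -0.23 in clones 210-58 and 226-47, and -0.05 in PJ34, against -0.04, 0.07 and 0.01 on the other autosomes. The log ratio, which divides one by the other, was accordingly a little higher on chromosome 8 in the clones. Its median over probes was -0.16 in wild type and -0.18 in PJ34, the lowest of the 20 chromosomes on both arrays, against 0.07 in clone 210-58 and 0.03 in clone 226-47. Over the regions the median difference from wild type was 0.10 and 0.19 in clones 210-58 and 226-47, and -0.05 in PJ34. The median of the mean of the clones was 0.15 on chromosome 8 and 0.01 over all 14121 regions. Because Cy3, on which the chromosome was chosen, is the denominator of the ratio, this shift is a description too. The shift was larger with some other ways of treating the signal: 0.41 with normexp background correction of the raw signals and 0.42 with intensity-dependent loess. It was smaller with others: 0.11 with quantile normalization and 0.12 with the median over the probes of a region. When each array was centred on chromosome 8 itself, the value was -0.059.

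By level of enrichment, Cy3 behaved alike in all classes and Cy5 did not. The Cy3 difference lay between -0.45 and -0.40 in clone 210-58, and between -0.44 and -0.39 in clone 226-47, from the least to the most enriched regions. In clone 226-47 the Cy5 difference went from 0.07 in the 118 regions with a mean log ratio below -1 to -1.15 in the 38 regions between 2 and 3, and was -0.77 in the 48 regions above 3. Its log ratio difference accordingly went from 0.52 through -0.73 to -0.31. The other autosomes of that array showed a like course, with log ratio differences of 0.41, -0.71 and -0.40 in the same classes. In clone 210-58 the log ratio difference stayed between -0.24 and 0.19 in all 6 classes. In the 314 regions between -1 and 0 it was 0.18, against -0.07 on the other autosomes, and in clone 226-47 it was 0.38 against 0.18. Between 1 and 2 it was lower than on the other autosomes, at -0.05 against -0.02 in clone 210-58 and -0.49 against -0.34 in clone 226-47. Under PJ34 it lay between -0.14 and -0.02 in the 5 classes up to a level of 3 and was 0.60 above 3, where it was 0.45 on the other autosomes.

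At the 86 regions with a mean of 2 or more, clone 210-58 differed from wild type by a median log ratio of 0.02, clone 226-47 by -0.55, and the mean of the clones by -0.24. The 2 clones thus lay on either side of 0, and the lower value of their mean rests on clone 226-47. The value of the mean also depended on the scaling: it was -0.067 with normexp, -0.12 with quantile normalization, -0.025 with median-absolute-deviation scaling and 0.18 with loess. On the other autosomes the values of the 2 clones were -0.08 and -0.53. Under PJ34 the median difference at these regions was 0.30 on chromosome 8 and 0.29 elsewhere.

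**Figure D3:**
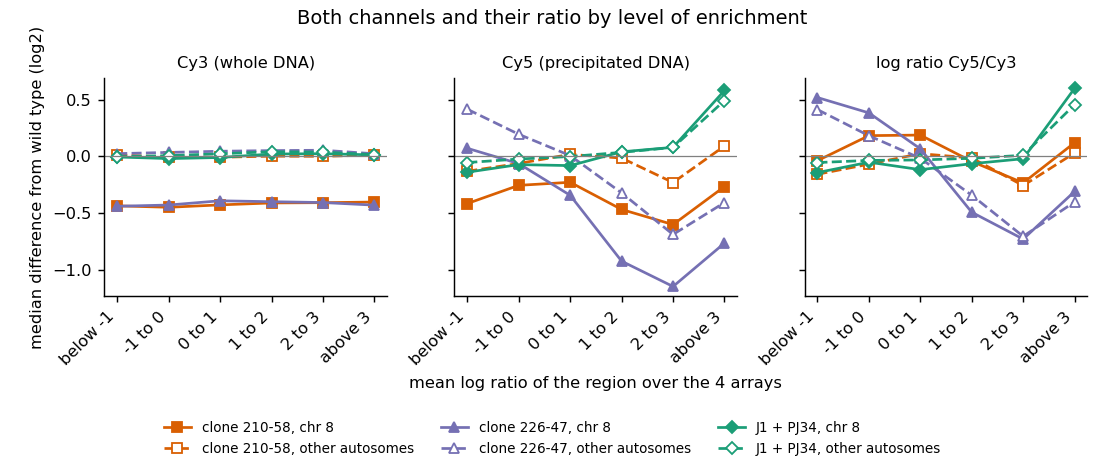
Median difference from wild type in Cy3, Cy5 and the log ratio for 6 classes of regions by their mean log ratio over the 4 arrays; filled symbols and solid lines are chromosome 8, open symbols and dashed lines the 15 other autosomes. The Cy3 difference of both clones is lower on chromosome 8 in every class (-0.45 to -0.39). The log ratio of clone 226-47 on chromosome 8 takes a course like that of the other autosomes, reaching -0.73 between 2 and 3. Between -1 and 0 chromosome 8 is higher than the other autosomes in clones 210-58 and 226-47 (0.18 and 0.38 against -0.07 and 0.18). Between 1 and 2 it is lower (-0.05 and -0.49 against -0.02 and -0.34).

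Single regions were compared between the 2 clones and wild type with limma's moderated test, fitted on all 14121 regions with Benjamini-Hochberg adjustment. On chromosome 8, 31 of 810 regions (3.83%) had an adjusted p under 0.05, against 2.78% of all regions. Of these, 20 (2.47%, against 1.19%) were higher in the clones and 11 (1.36%, against 1.59%) were lower. The contrast is the one whose Cy3 chose the chromosome, so nothing is read from these shares. In all 31 regions the clones differed from each other by less than their mean differed from wild type. This was largely set by the call, which needs a large mean difference, while the SD between clones had a median of 0.22 over the 810 regions. Without adjustment, 114 of the 810 regions (14.1%) had a p under 0.05, against 12% of all regions. The count and the split depended on the scaling. Centred on chromosome 8, 46 regions were called, 9 higher and 37 lower (5.12% of all regions), and with normexp background correction 106 were called, 102 higher and 4 lower (3.02% of all regions). Median-absolute-deviation scaling gave 65 calls, 45 of them higher (5.53% of all regions). Quantile normalization left 3 calls, none higher (0.191% of all regions), and the fit without the mean-variance trend gave 12, with 5 higher (1.29% of all regions). With loess limma called 0 regions on any chromosome, while 389 chromosome 8 regions had an unadjusted p under 0.05, 381 of them higher (13.4% of all regions had such a p). Standard errors of the called regions were 0.29 to 0.45. The prior degrees of freedom of the fit were infinite, so each error comes wholly from the spread of the clones at all regions of a like level, and the distance between the clones at the region itself does not enter it.

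**Figure D4:**
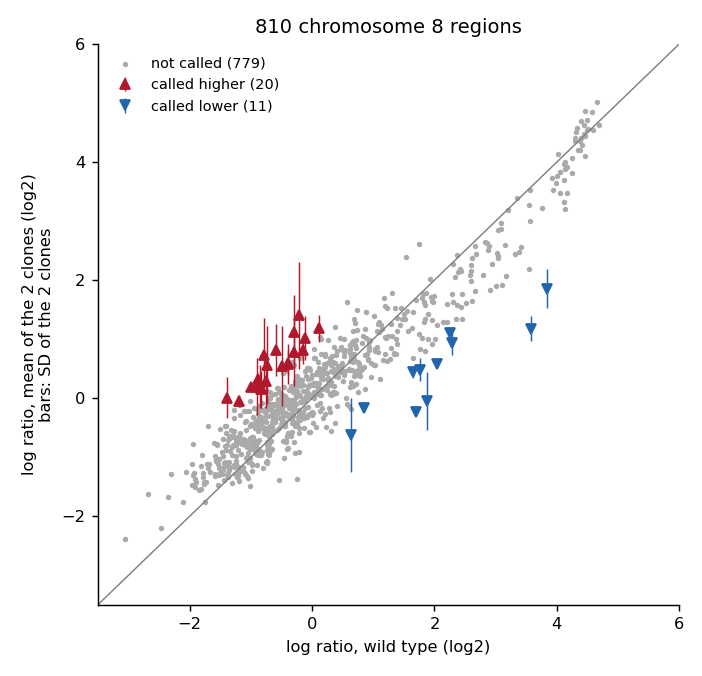
Log ratio of the 810 chromosome 8 regions in wild type (horizontal) and as the mean of the 2 clones (vertical), on the log2 scale, with the line of equality; bars on called regions are the SD of the 2 clones. The 20 regions called higher have wild type values from -1.39 to 0.12, and the 11 called lower have wild type values from 0.63 to 3.83.

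The 20 regions that rose, whose 6 largest all lost their call with quantile normalization and with loess, started from a low level, between -1.39 and 0.12 in wild type, and rose by 0.97 to 1.61. Their median log ratio was -0.66 in wild type, 0.90 and 0.31 in clones 210-58 and 226-47, and 0.35 in PJ34. PJ34 was also above wild type in 19 of the 20, with a median difference of 1.15. The rises thus mostly set the single wild type array apart from all other arrays. In 18 of the 20, clone 210-58 was further from wild type than clone 226-47. The precipitated DNA was above wild type in all 20 in both clones, with a median Cy5 difference of 0.88 in clone 210-58 and 0.43 in clone 226-47. Beside it, the median Cy3 difference of these regions was -0.55 and -0.43. The size of each rise in the ratio is the sum of its Cy5 and Cy3 parts. As the regions were picked by a large rise in the ratio, a higher Cy5 was largely set by the call and is no separate support. One of the 20 reached a log ratio of 2 in clone 210-58, and in clone 226-47 the highest value was 1.02.

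The largest rise was at chr8:4493215-4493548, a region of 3 probes, with a log ratio of -0.21 in wild type, 2.04 and 0.76 in clones 210-58 and 226-47, and 1.58 in PJ34. Wild type was the lowest of the 4 samples, and the clones were 1.61 higher (SE 0.32), with an SD of 0.90 between them. Cy5 there was above wild type by 1.41 and 0.60 in the clones, and Cy3 below it, with differences of -0.85 and -0.35.

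The second, chr8:12430349-12431409, rested on 10 probes over about 1 kb. Its log ratio was -0.79 in wild type, 1.18 and 0.28 in clones 210-58 and 226-47, and 1.09 in PJ34, a rise of 1.51 in the clones (SE 0.29, SD between clones 0.64). On each of the 10 probes wild type was the lowest of the 4 samples. One probe, 371 bp from the centre, stood well above its neighbours on every array, from 2.0 in wild type to 3.41 in clone 210-58.

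Of the other 4 of the 6 largest rises, chr8:90833865-90834203 had -0.29 in wild type against 1.57 and 0.69 in clones 210-58 and 226-47, with 1.07 in PJ34. The region chr8:86916171-86916468 had -0.60 in wild type against 1.13 and 0.51 in the clones and 0.63 in PJ34. At chr8:87082678-87083051 wild type had -1.39, the clones 0.26 and -0.24, and PJ34 0.38. The region chr8:28587257-28587704 had -0.73 in wild type, 1.02 and 0.09 in the clones and 0.73 in PJ34. In each of these 4, wild type was the lowest sample and clone 210-58 lay above clone 226-47. Among the other 14 rises, the neighbours chr8:73417292-73417729 and chr8:73418351-73418996, 622 bp apart, rose by 0.99 and 1.14, and were singled out after their values were seen.

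The 11 regions that fell lay between 0.63 and 3.83 in wild type, 9 of them at 1.5 or more and 5 at 2 or more, and fell by 1.01 to 2.40. Their median log ratio was 1.88 in wild type, 0.56 and 0.37 in clones 210-58 and 226-47, and 1.10 in PJ34. PJ34 was also below wild type in 10 of the 11, with a median difference of -0.79. Of the 810 regions 53.7% were below wild type in PJ34, and 51.2% of all 14121 regions. The 11 were picked as high in wild type against the clones, and PJ34 is set against that same array. The error of the wild type array thus enters both differences, and PJ34 is no separate support. The median Cy5 difference was -1.69 in clone 210-58 and -1.85 in clone 226-47, and over the 11 regions the differences lay between -2.89 and -1.34. Cy3 of the same regions was lower by the usual amount, with medians of -0.37 and -0.38. As a lower Cy3 raises the ratio, these falls were larger in Cy5 than in the ratio. The regions were picked by a large fall in the ratio, so a lower Cy5 was largely set by the call and is no separate support.

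The largest fall was at chr8:125661363-125662022, with 7 probes. Its log ratio was 3.57 in wild type and 4.18 in PJ34, against 1.02 in clone 210-58 and 1.33 in clone 226-47. Both clones lay far below both other samples, by 2.40 relative to wild type (SE 0.39, SD between clones 0.22). On wild type the 7 probes lay between 3.29 and 3.88 and in PJ34 between 3.96 and 4.64, whereas they lay between 0.44 and 1.32 in clone 210-58 and between 0.78 and 1.64 in clone 226-47, so no probe of a clone overlapped those of the other samples. The region was picked as the largest fall on these same values, and its probes, within 660 bp, are not replicates of a sample. It was the 1 region of the 78 at 2.5 or more in wild type that was below 1.5 in both clones. No such region was below 1.5 in PJ34. The same counts over all regions are not at hand, so nothing is read from these.

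Its neighbours within 150 kb had other courses. At chr8:125750960-125751330, about 90 kb further on, the log ratio was 4.31 in wild type, 4.59 and 4.42 in clones 210-58 and 226-47, and 5.36 in PJ34, and at chr8:125516768-125517129, on the other side, it was 3.35, 3.46, 3.33 and 3.71. Between that region and the fall, chr8:125563887-125565053, 8 probes, was unenriched, with -0.76 in wild type, -0.26 and -0.20 in the clones and -0.52 in PJ34. None of these 3 passed the test, which at highly enriched regions could call only large differences. At chr8:125756516-125757052, with 5 probes, it was 3.55 in wild type, 2.25 and 2.11 in the clones and 4.18 in PJ34, and did not pass after adjustment.

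**Figure D5:**
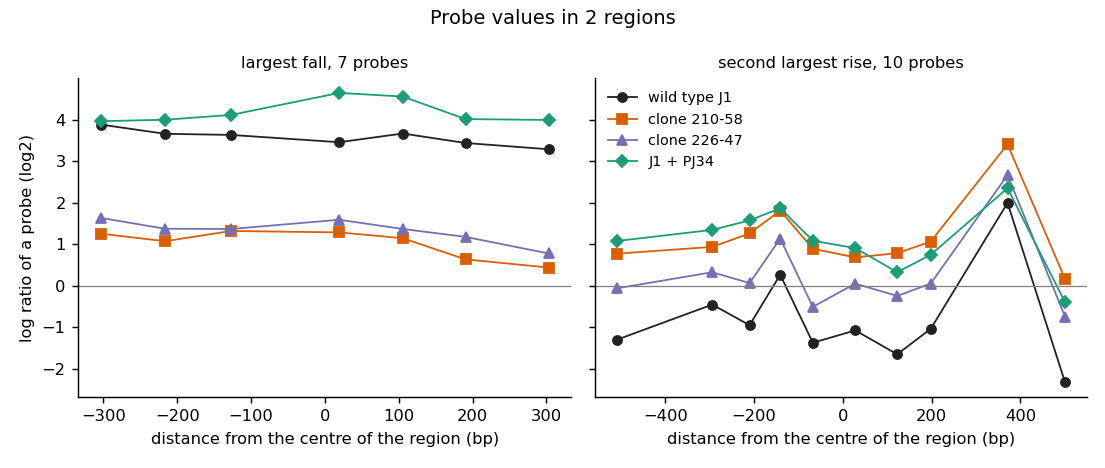
Log ratio of each probe, by distance in bp from the centre of the region, on the 4 arrays, for the region with the largest fall in the clones (left, 7 probes) and the one with the second largest rise (right, 10 probes). On the left both clones stay at or below 1.64 at every probe and the other samples at or above 3.29; on the right wild type is the lowest sample at every probe.

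The second largest fall was at chr8:48891215-48891563, 3 probes, with 3.83 in wild type and 3.79 in PJ34 against 2.09 in clone 210-58 and 1.63 in clone 226-47, a fall of 1.98 (SE 0.45). As at the first, PJ34 stayed with wild type, but here both clones kept a clear enrichment. The next 2 falls ended near 0. At chr8:46831943-46832367, 5 probes, the log ratio was 1.70 in wild type, -0.22 and -0.24 in clones 210-58 and 226-47, and 0.41 in PJ34. At chr8:61804522-61805239, 7 probes, it was 1.88 in wild type, -0.39 and 0.29 in clones 210-58 and 226-47, and -0.02 in PJ34. In these 2 regions wild type was the only sample well above 0, and all 3 other arrays lay below it by over 1.

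The remaining falls among the 6 largest were smaller. The region chr8:74589336-74589562 had 2.03 in wild type, 0.56 and 0.59 in the clones and 1.22 in PJ34, and chr8:122878187-122878486 had 2.28 in wild type, 1.07 and 0.79 in the clones and 1.85 in PJ34. In both, PJ34 lay between wild type and the clones. Close to the threshold, chr8:107519648-107520149 (2.25 in wild type, 1.13 and 1.09 in the clones) and chr8:87595390-87596110 (-0.15 against 0.99 and 0.64) lay just inside, as did chr8:73417292-73417729 above. Just outside lay chr8:46857140-46857568 (1.84 against 0.74 and 0.85), chr8:109400431-109400939 (-0.32 against 0.79 and 0.43) and chr8:87870298-87870622 (-1.17 against -0.09 and -0.13). Their differences, 0.93 to 1.06 in size, were about as large as those inside.

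Taken one at a time, clone 210-58 differed from wild type by at least 1 in 64 regions (7.9%, against 6.31% of all regions), 40 higher and 24 lower. Clone 226-47 did so in 43 (5.31%, against 3.92%), 19 higher and 24 lower. Centred on chromosome 8, these became 19 higher and 44 lower in clone 210-58 (7.78%, against 8.51% of all regions), and 5 higher and 50 lower in clone 226-47 (6.79%, against 5.8%). The clones differed from each other by at least 1 in 16 regions (1.98%, against 2.39% of all regions). Clone 210-58 was the higher in 10 of them (1.23%, against 1.41%) and clone 226-47 in 6. With 1 array each, these are differences between 2 arrays, with no test.

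PJ34 treated J1, whose Cy3 on chromosome 8 matched that of wild type, differed from it in the log ratio by at least 1 in 47 of 810 regions (5.8%), against 3.7% of all regions. Of these, 29 were higher (3.58%, against 2.44%) and 18 lower (2.22%, against 1.25%). There was 1 array on each side, so the differences have no replicate check. With the median over the probes of a region in place of the mean, 70 regions passed this size, 31 higher and 39 lower (5.95% of all regions), so the split turned. Over all 810 regions the median difference was -0.05, with an SD of 0.50 over regions.

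The largest gain was at chr8:123391070-123391384, 4 probes, from 0.57 in wild type to 2.54 in PJ34, with 2.04 in clone 210-58 and 1.21 in clone 226-47. It was not called in the clones. The next 3 were the rises at chr8:12430349-12431409, chr8:4493215-4493548 and chr8:87082678-87083051 described above, with gains of 1.88, 1.79 and 1.77 under PJ34. The fifth, chr8:91896501-91896983, went from -1.70 in wild type to -0.0038 in PJ34, with -0.29 and -0.65 in the clones. In all 5, wild type was the lowest of the 4 arrays, and as that array is shared by every difference, its own error enters each of them. Cy3 of these 5 regions differed between PJ34 and wild type by -0.09 to 0.18, and Cy5 by 1.68 to 1.91. As the regions were picked by a large gain in the ratio, a higher Cy5 was largely set by the pick and is no separate support.

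The largest loss under PJ34 was at chr8:61804522-61805239, by 1.90, the region that also fell in both clones. The second, chr8:47473889-47474475, 6 probes, had 0.53 in wild type and -1.17 in PJ34, against 1.06 in clone 210-58 and -0.29 in clone 226-47, values on either side of wild type. At chr8:46857140-46857568 the log ratio was 1.84 in wild type and 0.46 in PJ34. The next, chr8:73439077-73439705, had 0.18 in wild type and -1.14 in PJ34, with 0.71 and 0.17 in the clones, and there PJ34 stood alone. The last of the 5, chr8:37926221-37926974, had -0.54 in wild type and -1.85 in PJ34, with -1.72 and -1.06 in the clones. Every probe of these 5 regions lay below wild type in PJ34.

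The longest regions show how values vary within an island. The region with the most probes, chr8:95244736-95250031, had 41 probes over 5296 bp and a mean log ratio of -0.66 in wild type, -0.22 and -0.15 in clones 210-58 and 226-47, and -0.47 in PJ34. The 38 of its probes with a Cy5 well above background in wild type ranged from -2.77 to 1.86 there, so the mean covers stretches with and without enrichment. Its Cy3 difference from wild type was -0.41 and -0.45 in the clones and 0.05 in PJ34. The regions chr8:11555014-11558682 and chr8:90848480-90853024, with 30 probes each, had Cy3 differences of -0.59 and -0.44 in clone 210-58 and of -0.45 and -0.37 in clone 226-47. Their log ratios were -0.88 and -0.37 in wild type, -0.27 and 0.20 in clone 210-58, -0.28 and 0.09 in clone 226-47, and -1.12 and -0.11 in PJ34. None of the 3 longest regions was called.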

How the data were processed

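The deposited files give an intensity per spot and channel, made per the file headers by Agilent Feature Extraction 10.7.3.1 (version 9.1 in the submitters' processing notes), of which the processed signals were used. The deposited value table holds the ratio of Cy5 to Cy3 processed signals and matched the scanner files. Here log2 ratios and log2 Cy3 and Cy5 were centred on each array's median over the 97651 probes that are not controls. The 442 probes without a position and 30 with an outlier flag were left out, and probes were averaged per region. The 2 clones were compared with wild type with limma 3.58.1 in R 4.3.3 (lmFit and eBayes with a mean-variance trend), tested on simulated data, over all regions. The number of arrays limits the precision. The chromosome, the regions and the lists were chosen with earlier results of these data known. Named regions are the 6 largest rises and falls called, the 3 nearest the threshold on each side, the 5 largest gains and losses under PJ34 with at least 75% of probes on one side, the 6 highest and lowest by mean log ratio, the 5 at each end of Cy3 in both clones and the 3 with most probes. Planned lists of genes of the chromosome were not used, because no probe could be paired with a gene. Alternatives were normexp (offset 50), loess, quantile and median-absolute-deviation scaling, centring on chromosome 8 or the other autosomes, probe medians, gaps of 250 and 1000 bp, at least 5 probes, probes above background only, no trend, and leaving out each clone. The Parp-1 locus, on another chromosome, was not analysed here.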

Additional observations from a re-analysis of the deposited data

How the results depend on the processing

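The Cy3 gap of the clones (-0.43) kept its direction under all 10 alternatives, at -0.40 with normexp, -0.45 with the median over probes, -0.42 for clone 226-47 against PJ34 on their own slide, an alternative chosen after seeing the data, and -0.44 to -0.42 without either clone. The log ratio shift (0.15) was 0.41 with normexp, 0.42 with loess and 0.30 for clone 226-47 against PJ34. It was 0.11 with quantile normalization and 0.12 with the median over probes. It was -0.059 when centred on chromosome 8, which by construction removes a shift of the whole chromosome. At the enriched regions the difference (-0.24) was 0.18 with loess, -0.025 with median-absolute-deviation scaling, -0.067 with normexp and -0.12 with quantile normalization, and lay between -0.55 and 0.02 without either clone. The 31 called regions became 106 with normexp, 65 with median-absolute-deviation scaling (45 higher), 12 without the mean-variance trend (5 higher), 3 with quantile normalization (none higher) and 0 with loess (389 with an unadjusted p under 0.05 in limma). The cause was not tested. The 6 largest rises and 6 largest falls kept their direction under normexp, quantile, loess, median-absolute-deviation scaling and centring on chromosome 8. Of them, 0 rises and 3 falls were called with quantile normalization, none with loess, and all 6 rises and 4 falls with normexp. The 47 regions that differed by at least 1 under PJ34 became 11 with normexp, 6 with loess, 70 with the median over probes (31 higher and 39 lower) and 29 with at least 5 probes, which leaves fewer regions (534). Leaving out a clone, or taking the slide as a block, leaves no residual degree of freedom, so no calls could be made. Within the slide of wild type the clone value is that of clone 210-58. No paired analysis was possible because the labels number no replicates, and a block leaves no residual degree of freedom.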

Other observations

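Of the chromosome 8 probes kept, 72 belonged to no region. Their median Cy3 difference from wild type was -0.43 in both clones and 0.01 in PJ34, close to that of the regions. Their median log ratio was 1.18 in wild type, 1.62 and 1.16 in clones 210-58 and 226-47, and 1.27 in PJ34, against -0.21, 0.03, 0.04 and -0.24 for the regions.

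Of the 99 chromosome 8 regions at a log ratio of 2 or more in wild type, 23 (23.2%) were under 2 in clone 210-58, 34 (34.3%) in clone 226-47 and 12 (12.1%) in PJ34, against 23.1%, 37.0% and 13.4% of the 1404 such regions on all chromosomes. In the other direction, 10, 2 and 11 of the 711 regions under 2 in wild type were at 2 or more (1.41%, 0.281% and 1.55%), against 1.14%, 0.055% and 1.31% over all chromosomes. The shares on chromosome 8 lay near those of the whole array in most of these counts, and none was tested.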
